A study of Canis lupus familiaris with 22 samples.

Results

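PF4, PPBP, ITGA2B, ITGB3, GP9, GP1BA, GP1BB, TREML1, SELP and GP6 are 10 genes of platelets and of megakaryocytes, the marrow cells that make platelets. They were chosen by their direction in 0 vs. ctrl on these same arrays, where platelet genes tended to be lower before therapy than in healthy dogs, and they were read from the probes that carry one of these names. A probe was found for 7 of the 10 genes, among 34382 distinct gene names on the array, and no probe is named PF4, GP1BB or GP6. The 7 genes have 10 probes of the 43603 measured, and all 10 passed the filter on dim probes (a Cy5 signal well above background on 7 or more arrays).

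Platelets are fragments without a nucleus that megakaryocytes shed into the blood, and they carry RNA made in the megakaryocyte. At an injured vessel they attach through the GPIb-IX-V complex, which binds von Willebrand factor, and through GPVI, which binds collagen, and they then join to one another through the fibrinogen receptor, an integrin made of ITGA2B and ITGB3. Activated platelets release chemokines from their granules and bring granule membrane proteins such as P-selectin to their surface, where these engage leukocytes.

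Blood RNA was measured on 22 Agilent canine arrays, 8 from healthy dogs (ctrl), 7 from dogs with canine atopic dermatitis (cAD) before allergen-specific immunotherapy (ASIT) and 7 from the same dogs with cAD after 6 months of ASIT. The dogs with cAD were privately owned, whereas the ctrl dogs were blood donors, and both groups held various breeds. On each array the RNA of a dog (Cy5) was set against a common reference (Cy3) pooled from 13 healthy dogs outside the experiment, and a value is the log2 ratio of Cy5 to Cy3. The material is whole blood by the labels and peripheral blood nuclear cells by the title of the series. In blood as a whole, fewer platelets and less of an RNA in each platelet cannot be told apart. The paper reports that blood morphology lay inside reference ranges in the dogs with cAD and the healthy dogs. Platelet numbers of each dog were not at hand.

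The platelet probes were bright on nearly every array. Cy5 was well above background on all 22 arrays for 9 of the 10 probes, and Cy3 for all 10, with 0 arrays saturated. The exception was the dimmer of the 2 ITGB3 probes, above background in Cy5 on 21 arrays and on 6 of the 7 before ASIT. Over all probes, the share with Cy5 well above background ran from 83.7% to 92.2% on ctrl arrays, from 53.3% to 87.4% before ASIT and from 57.2% to 81.6% after ASIT. Where a gene has 2 probes, the brighter one over all arrays is its lead probe, and a gene's value is that of its lead probe unless the second is named. Precision is limited by the number of arrays.

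In 0 vs. ctrl (before ASIT minus ctrl), each of the 7 genes had a lower mean before ASIT, by differences from −0.65 (PPBP) to −0.24 (GP9). The median difference was −0.53, beside −0.02 over all 38290 probes tested, of which 52.4% were lower before ASIT. These values chose the genes and are given without a test. Among all probes, limma called 16 at an adjusted p under 0.05 (0.0418%), and 0 of the 7 lead probes were among them. Across alternatives the number called ran from 0, as with slide or scan day as a random block, to 8094 with Cy5 alone. Every array before ASIT lay below every ctrl array for 0.136% of probes and for 0 of the 7 lead probes.

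GP1BA encodes the chain of the GPIb-IX-V complex that holds the binding site for von Willebrand factor (chromosome 5, 31681618 to 31681679, minus strand, CanFam3.1). Its log2 ratio had a lowest value of −1.51, a median of 0.23 and a highest value of 0.91 in ctrl. The lowest, median and highest values were −1.43, −0.18 and 0.31 before ASIT, and −1.07, 0.14 and 0.69 after ASIT. The groups overlapped, the lowest array of all being ctrl replicate 1, while 4 of the 8 ctrl arrays lay above all 7 before ASIT. Means ± SD were 0.08 ± 0.74 in ctrl (n = 8) and −0.47 ± 0.64 before ASIT (n = 7), a difference of −0.55 (SE 0.32).

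GP9 encodes the small glycoprotein that the same complex needs to reach the cell surface (chromosome 20, 3028116 to 3028175, minus strand). Its values were −0.42, 0.34 and 0.63 in ctrl as lowest, median and highest, −1.04, −0.14 and 0.72 before ASIT, and −0.73, 0.21 and 0.61 after ASIT. The groups overlapped at both ends, since 2 of the 7 arrays before ASIT lay above all ctrl arrays and 1 lay below them all. The difference of −0.24 (SE 0.24; −0.066 without dog 4) in 0 vs. ctrl was the smallest of the 7 genes and was smaller than the spread within either group (SD 0.40 in ctrl, 0.62 before ASIT).

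ITGA2B encodes the alpha chain of the fibrinogen receptor (chromosome 9, 19062833 to 19063762, plus strand). Its lowest, median and highest values were −0.71, 0.10 and 0.89 in ctrl, −1.29, −0.23 and 0.51 before ASIT, and −0.91, 0.23 and 0.52 after ASIT. The groups overlapped, with 2 arrays before ASIT below all ctrl arrays and 2 ctrl arrays above all those before ASIT. The difference in 0 vs. ctrl was −0.40 (SE 0.28; −0.23 without dog 4), with SDs of 0.53 in ctrl and 0.62 before ASIT.

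ITGB3 encodes the beta chain of the same receptor. The lead probe (chromosome 9, 9179970 to 9180028, minus strand) had a lowest value of −1.18, a median of 0.29 and a highest value of 0.98 in ctrl, −1.07, −0.12 and 0.08 before ASIT, and −0.90, −0.01 and 0.91 after ASIT. On this probe 5 of the 8 ctrl arrays lay above all 7 arrays before ASIT, and ctrl replicate 1 lay below them all. The difference in 0 vs. ctrl was −0.53 (SE 0.29; SD 0.68 in ctrl, 0.50 before ASIT). The second probe (chromosome 9, 9182603 to 9184561, minus strand) had −0.02, 0.20 and 0.42 in ctrl, −1.52, −0.53 and 0.62 before ASIT, and −0.84, 0.12 and 0.64 after ASIT. It thus had its narrowest spread in ctrl, where the lead probe had its widest. Its difference in 0 vs. ctrl was −0.73 (SE 0.29). The Lowess-normalized signal of this second probe differed between the groups in both channels. Mean log2 Cy5 intensities were 8.65, 6.75 and 7.03 in ctrl, before and after ASIT. Those of Cy3 were 8.46, 7.29 and 7.16, although Cy3 is the same reference RNA on every array.

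PPBP encodes the precursor of a chemokine that platelet granules store and that draws neutrophils. Its lead probe had a lowest value of −0.86, a median of −0.11 and a highest value of 0.99 in ctrl, −1.37, −0.29 and 0.09 before ASIT, and −1.15, −0.60 and 0.54 after ASIT. The groups overlapped, with 3 arrays before ASIT below all ctrl arrays and 3 ctrl arrays above all those before ASIT. PPBP had the difference farthest from 0 among lead probes in 0 vs. ctrl, −0.65 (SE 0.31; SD 0.76 in ctrl, 0.57 before ASIT), but its ctrl arrays also differed by slide, with a mean of 0.50 on slide 1 and −0.37 on slide 2 (4 arrays each).

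SELP encodes P-selectin, a granule membrane protein that activated platelets display and that endothelial cells also make. Its lead probe (chromosome 7, 28994514 to 28995603, plus strand) had −0.83, 0.06 and 0.99 in ctrl as lowest, median and highest, −1.32, −0.59 and 0.52 before ASIT, and −0.84, −0.14 and 0.59 after ASIT. The groups overlapped, with 2 arrays before ASIT below all ctrl arrays. The difference in 0 vs. ctrl was −0.55 (SE 0.28; SD 0.53 in ctrl, 0.69 before ASIT), and that of the second probe (28991360 to 28991419 on the same strand) was −0.56.

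TREML1 encodes a receptor of the granule membrane that is made in platelets and megakaryocytes (chromosome 12, 9915701 to 9915760, minus strand). Its values were −1.05, 0.08 and 0.57 in ctrl as lowest, median and highest, −0.95, −0.23 and 0.10 before ASIT, and −0.62, −0.10 and 0.91 after ASIT. The ctrl arrays spanned the whole range of those before ASIT, from below the lowest (1 array) to above the highest (4 arrays). The difference in 0 vs. ctrl was −0.27 (SE 0.25; SD 0.53 in ctrl, 0.38 before ASIT), and it was −0.17 without dog 7, −0.17 without ctrl replicate 3 and −0.40 without ctrl replicate 1.

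**Figure D1:**
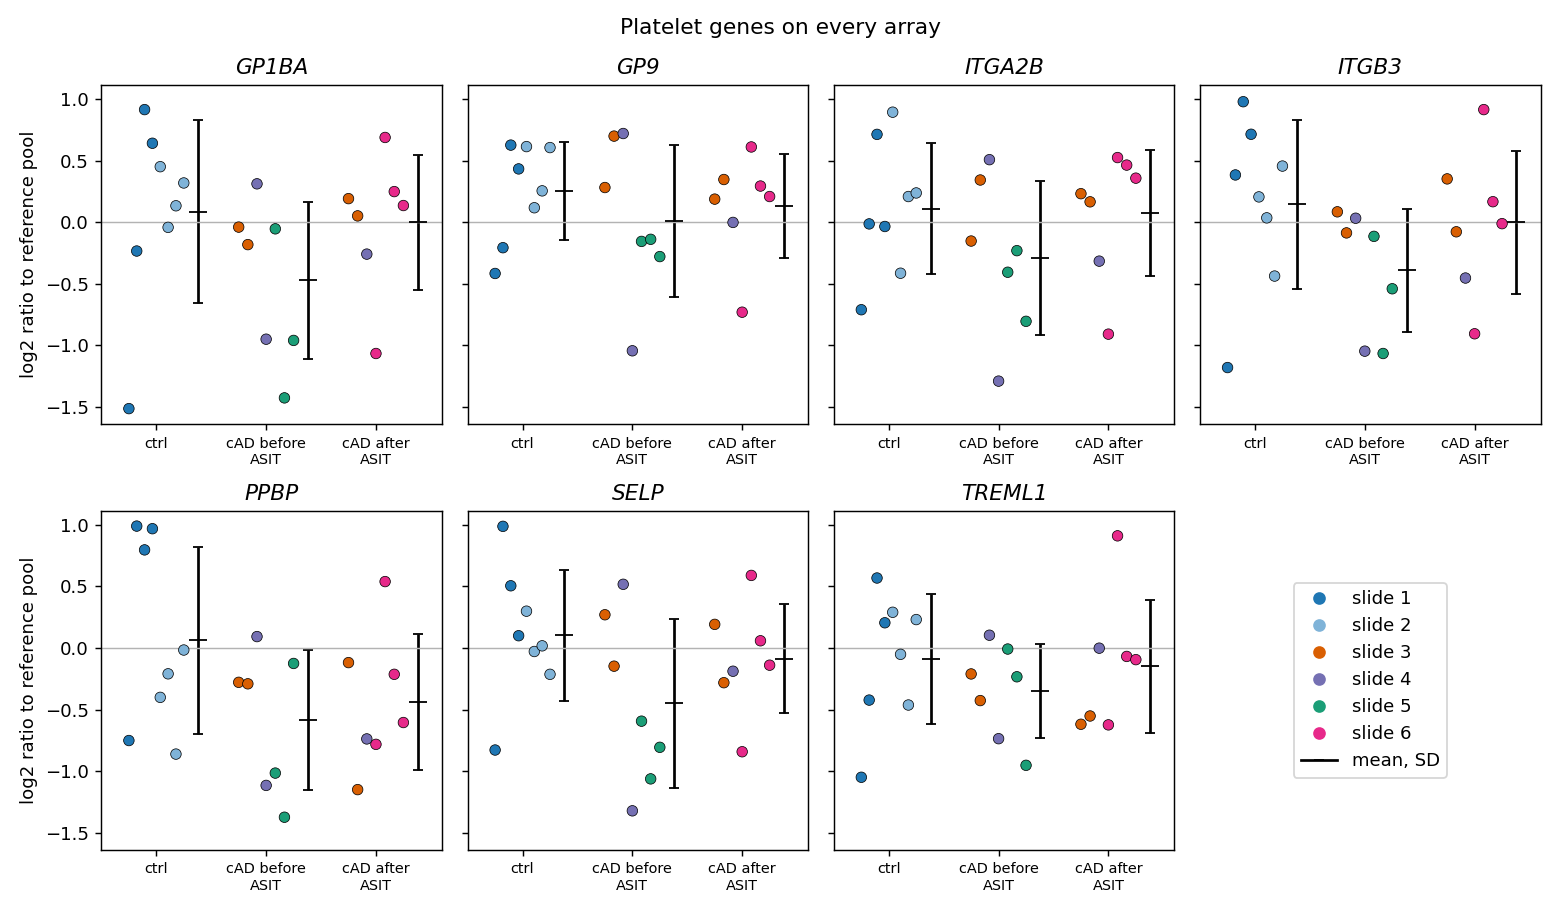
Log2 ratio to the reference pool (y axis) of the lead probe of each of the 7 platelet genes on every array, by group (x axis) and coloured by slide, with the mean and SD of each group beside the points. The groups overlap for each gene, and the lowest GP1BA value, −1.51, is that of a ctrl array on slide 1.

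The ratio combines both dyes, and the 7 genes differed in which one moved. For GP1BA the mean log2 Cy5 intensity was 13.82 in ctrl and 13.26 before ASIT, while the reference stood at 13.73 in both. SELP had Cy5 means of 13.37 and 12.92 with reference means of 13.27 and 13.36. For ITGA2B, in contrast, Cy5 averaged 12.46 in ctrl and 12.42 before ASIT, and it was the reference that was higher on the arrays before ASIT (12.35 against 12.71). GP9 had Cy5 means of 12.61 and 12.62 and reference means of 12.35 and 12.61. These intensities are Lowess-normalized, so which raw spot was brighter or dimmer cannot be read from them. In normalized values, the lower ratios of ITGA2B and GP9 before ASIT came with a higher reference more than with a lower Cy5. For ITGB3 and PPBP both dyes moved, with Cy5 means of 13.62 and 13.31 for ITGB3 and of 13.98 and 13.58 for PPBP, and reference means of 13.47 and 13.70 for ITGB3 and of 13.91 and 14.17 for PPBP. TREML1 had Cy5 means of 15.13 and 14.84 and reference means of 15.22 and 15.19. After normalization of Cy5 alone between arrays, the differences in 0 vs. ctrl were −0.14 for ITGA2B and −0.09 for GP9, beside −0.67 for GP1BA, −0.57 for SELP, −0.53 for PPBP, −0.43 for TREML1 and −0.41 for ITGB3.

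The low values gathered on a few arrays. The mean over the 7 lead probes was lowest in dog 4 before ASIT (−1.07), then in ctrl replicate 1 (−0.92), in dog 4 after ASIT (−0.84), in dog 6 before ASIT (−0.79) and in dog 7 before ASIT (−0.64), and all 7 genes were below 0 on each of these arrays. It was highest in ctrl replicate 3 (0.73) and in dog 5 after ASIT (0.68), followed by ctrl replicates 4 (0.43) and 5 (0.34) and by dog 3 before ASIT (0.33). On the arrays of ctrl replicate 3, dog 5 after ASIT and dog 3 before ASIT, 0 of the 7 genes were below 0. By this mean over genes, though not for every gene, ctrl replicate 1 thus lay below 6 of the 7 dogs before ASIT, and dog 4 was low at both time points.

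Slide by slide, the ctrl arrays occupied slides 1 and 2 and the cAD arrays slides 3 to 6, so in both comparisons with ctrl the group and the slide cannot be told apart. Before ASIT, dogs 1 and 2 on slide 3 had means over the 7 genes of −0.01 each. On slide 4, dog 3 had 0.33 and dog 4 had −1.07. Slide 5 held dogs 5 to 7 before ASIT, with means of −0.34, −0.79 and −0.64, and each of the 7 genes was below 0 in each of these dogs. Slide 6 held dogs 4 to 7 after ASIT, with means of −0.84, 0.68, 0.13 and −0.02.

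In 6 months vs. ctrl (after ASIT minus ctrl), all 7 genes had lower means in treated dogs than in ctrl, with PPBP the farthest away on the ratio. The differences were −0.50 for PPBP (SE 0.31), −0.19 for SELP (SE 0.28), −0.15 for ITGB3 (SE 0.29) and −0.12 for GP9 (SE 0.24). GP1BA, TREML1 and ITGA2B had differences of −0.08, −0.06 and −0.04. The median was −0.12, beside −0.04 over all probes, of which 56.4% were lower after ASIT. This comparison shares the ctrl arrays with the one that chose the genes, so the shared sign is no separate result.

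For this comparison limma called 0 of all 38290 probes (0%) and 0 of the 7 lead probes, and at an unadjusted p under 0.05 it found 2757 probes (7.2%) and 0 of the 7. Adjusted p values of the 7 ran from 0.703 (PPBP) to 0.984 (ITGA2B). By 2-sided exact permutation tests of 7 against 8 arrays, which can reach 0.000155, p was 0.168 for PPBP, 0.463 for SELP, 0.662 for ITGB3, 0.576 for GP9, 0.803 for GP1BA, 0.821 for TREML1 and 0.896 for ITGA2B. Without the array of dog 4 after ASIT, the differences of GP1BA, GP9, ITGA2B, ITGB3 and TREML1 changed sign (0.092, 0.021, 0.13, 0.0041 and 0.016), and the median became 0.016. On Cy5 alone the median was −0.37, with −0.44 for TREML1, −0.38 for SELP, −0.37 for GP1BA, −0.37 for PPBP, −0.31 for ITGB3, −0.024 for GP9 and 0.29 for ITGA2B, and adjusted p ran from 0.245 to 0.958 in limma.

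In 0 vs. 6 months (before minus after ASIT), the 7 genes again had lower means before ASIT, with differences from −0.47 to −0.12. They were −0.47 for GP1BA (SE 0.33), −0.39 for ITGB3 (SE 0.30), −0.36 for ITGA2B (SE 0.29) and −0.36 for SELP (SE 0.29). TREML1, PPBP and GP9 had −0.20, −0.15 and −0.12. The median was −0.36, beside −0.01 over all probes, of which 51.4% were lower before ASIT. The arrays before ASIT are those on which the genes were chosen as low, so this direction is no separate result either.

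Between the time points limma called 0 of all 38290 probes (0%) and 0 of the 7 lead probes, and at an unadjusted p under 0.05 it found 2283 probes (5.96%) and 0 of the 7. Adjusted p values of the 7 ran from 0.934 to 0.953. ITGB3 was lower before ASIT in 6 of the 7 dogs, with a 2-sided exact sign-flip permutation p of 0.141 within dogs, where 0.0156 is the smallest p this test can give. GP1BA was lower in 5 dogs (exact p = 0.156) and ITGA2B in 5 (exact p = 0.203). SELP, TREML1, GP9 and PPBP were lower in 4 dogs each, with exact p values of 0.25, 0.359, 0.547 and 0.688. With the dog as a replicate block, the median difference was −0.36 and limma called 0 probes, with 2511 at an unadjusted p under 0.05.

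The dogs differed in the slides that held their arrays. Dogs 1, 2 and 3 each had their arrays before and after ASIT on a shared slide, and their median differences over the 7 genes were −0.16, 0.13 and 0.70, with 4, 2 and 0 of the 7 genes lower before ASIT. Dogs 4 to 7 had their arrays on different slides, with medians of −0.31, −0.93, −1.12 and −0.67 and with 6, 7, 7 and 6 genes lower before ASIT. In dogs 1 to 3 alone, the 7 genes were on average higher before ASIT, by 0.035 (GP1BA) to 0.51 (PPBP) and with a median of 0.21. With the slide as a fixed term in a fit of the cAD arrays, the median was −0.022, and the differences were 0.30 for PPBP, 0.070 for GP9 and 0.034 for TREML1. Only slides 3 and 4 hold both time points, so this fit takes the differences from their arrays alone. These are the arrays of dogs 1 to 3 and of dog 4 before ASIT, so the fit is no separate reading of dogs 4 to 7. The 4 lowest medians of single dogs were those of dogs 4 to 7, and in these dogs the slide and the time point cannot be told apart. Whether dogs 1 to 3 differed from dogs 4 to 7 was not tested.

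**Figure D2:**
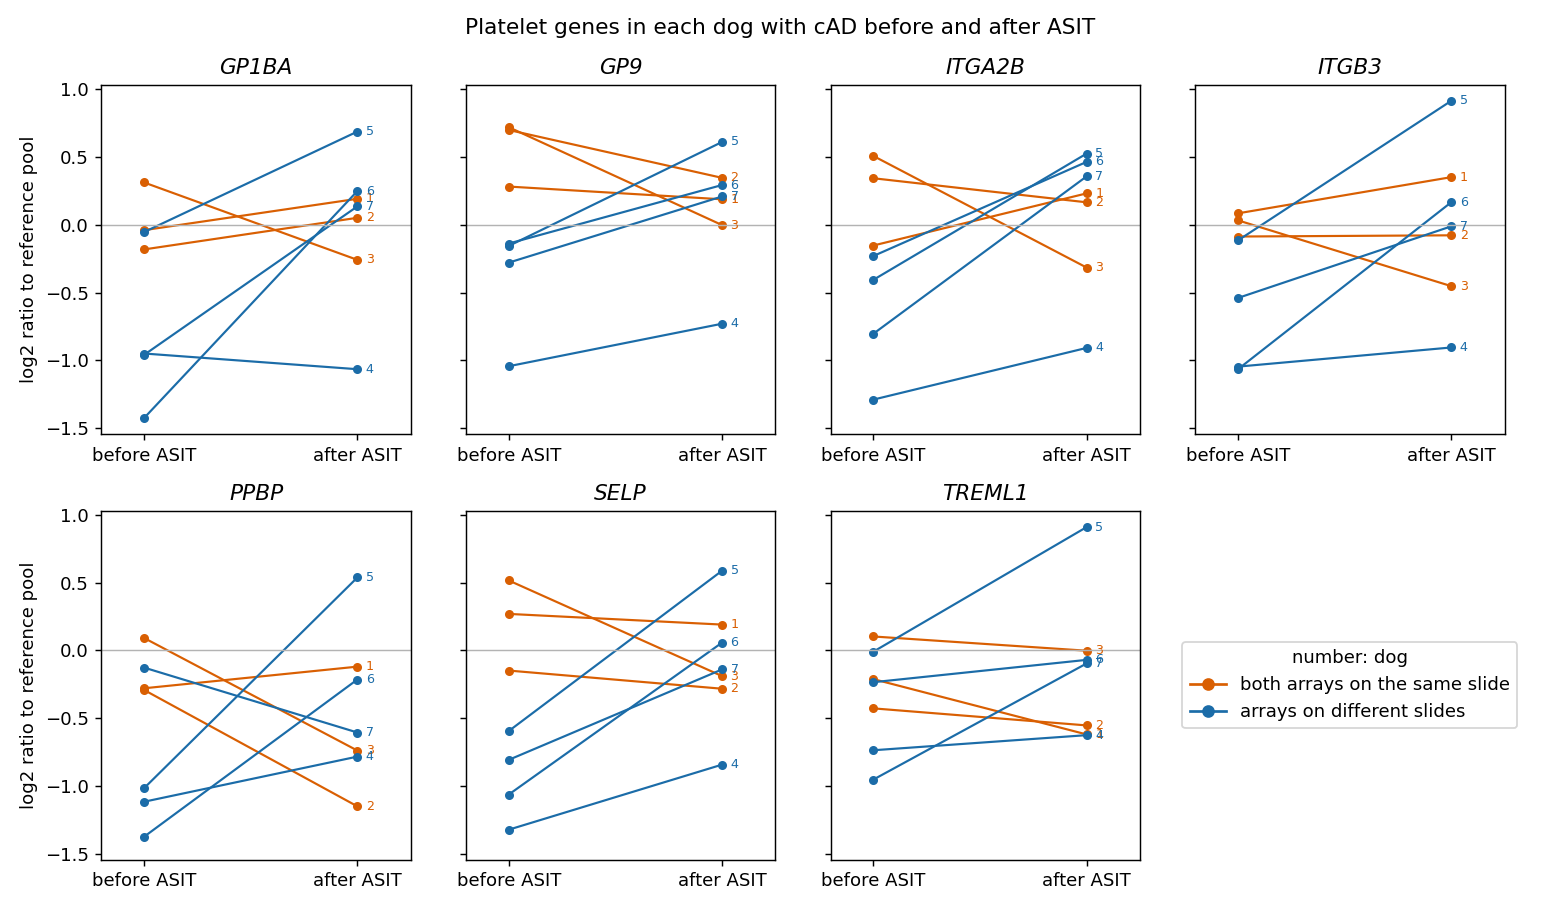
Log2 ratio to the reference pool (y axis) of the 7 lead probes before and after ASIT (x axis), with a line for each dog and colours for dogs with both arrays on the same slide (1 to 3) and on different slides (4 to 7). Dog 5 was lower before ASIT for each of the 7 genes and dog 3 was higher for each.

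No relation between a dog's ratio before ASIT and its ratio after ASIT passed the test for any of the 7 genes. Over the 7 dogs, Pearson's r ran from −0.43 (PPBP) to 0.54 (GP9) and Spearman's rho from −0.14 to 0.61, with exact permutation p values of r from 0.217 to 0.709. Adjusted over the 7 genes, p ran from 0.633 to 0.709 for r and was 0.84 for rho in each gene. Without the 2 dogs farthest from the median before ASIT, r of GP9 was −0.12 and r of ITGA2B went from 0.30 to −0.60, both without dogs 3 and 4, while r of ITGB3 went from 0.40 to 0.026 and that of PPBP to −0.78. It went up for GP1BA (0.19 to 0.67), TREML1 (0.45 to 0.64) and SELP (0.29 to 0.40). On Cy5 alone r was higher for each gene, at 0.85 for GP9 and 0.83 for ITGB3 (adjusted exact permutation p = 0.059 each), 0.70 for TREML1 (adjusted 0.18), 0.50 for GP1BA, 0.50 for SELP, 0.44 for ITGA2B and −0.32 for PPBP. Slides 3 and 4 hold both arrays of 3 dogs, which is too few for a value within slides.

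The 7 genes varied together within each group. Over 21 pairs of genes, Pearson's r was positive for all 21 pairs in ctrl, before ASIT and after ASIT. The median r was 0.69 in ctrl (0.19 to 0.93), 0.68 before ASIT (0.013 to 0.97) and 0.83 after ASIT (0.49 to 0.98). With exact permutation p values adjusted over all 63 relations, 8, 5 and 9 of the 21 pairs were below 0.05 by r, and 2, 2 and 5 by Spearman's rho. Without the 2 arrays farthest from the median of the first gene, 19, 19 and 15 pairs remained positive and the medians were 0.50, 0.56 and 0.64. In 10000 random sets of 7 other probes, drawn from 29877 with different names in a comparison added after seeing the data, 50.28%, 50.05% and 50.16% of pairs were positive, the median r was 0.00375, 0.001 and 0.0025, and the median of a set reached that of the platelet genes in 1, 4 and 0 sets. In sets drawn from 1430 probes as bright as the 7 it did so in 15, 84 and 10 of 10000 sets, with all 21 pairs positive in 15, 31 and 28. The 7 genes were listed as markers of the same cell type and the random sets were not, so these counts describe and are no test. The relations rest in part on the arrays low or high for the whole set, such as ctrl replicate 1 and dogs 4 and 5 after ASIT. A slide holds at most 4 arrays of a group, too few for a value within slides. Deviations from the mean of each group on each slide gave positive r for all 21 pairs over the 22 arrays, with a median of 0.75 (0.46 to 0.94). This alternative was chosen after seeing the data. Dog 3 after ASIT is alone in its group on slide 4 and adds nothing to these values. Where a group has 2 arrays on a slide, their deviations mirror each other, so the 22 arrays are not independent here.

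In 2 of the 21 pairs, both between adhesion receptor genes, the adjusted exact p of r was below 0.05 in each of the 3 groups. GP9 and ITGA2B had r = 0.81 in ctrl, 0.97 before ASIT and 0.94 after ASIT, with rho of 0.86, 1 and 0.79, exact permutation p values of r of 0.0161, 0.000198 and 0.00417 and adjusted values of 0.0472, 0.0125 and 0.0219 (0.055, 0.025 and 0.121 for rho). Without the 2 farthest arrays, r of this pair was 0.81, 0.92 and 0.78. GP1BA and ITGB3 had r = 0.88, 0.93 and 0.95 in the same order, rho of 0.79, 0.89 and 0.96, exact p values of 0.00667, 0.00556 and 0.000794 and adjusted values of 0.03, 0.0269 and 0.0125 (0.08, 0.055 and 0.025 for rho). By rho each of the 2 pairs was below 0.05 in 1 of the 3 groups. Without the 2 farthest arrays, their r was 0.40, 0.94 and 0.92, so the value in ctrl rests on ctrl replicates 1 and 3. GP1BA and GP9, of the same complex, had r = 0.90, 0.67 and 0.98, with exact p values of 0.000744, 0.104 and 0.00357 (adjusted 0.0125, 0.169 and 0.0219) and rho of 0.93, 0.61 and 0.75. ITGA2B and ITGB3, the chains of the same receptor, had r = 0.61, 0.68 and 0.89, with exact p values of 0.105, 0.0964 and 0.00417 (adjusted 0.169, 0.164 and 0.0219) and rho of 0.48, 0.68 and 0.89.

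Over all ctrl arrays, the chemokine gene PPBP was the least tied to the others, with a median r of 0.49 to the other 6 genes. This rank need not hold without the 2 farthest arrays. There, r of PPBP in ctrl went from 0.48 to 0.80 with TREML1 and from 0.49 to −0.0016 with GP1BA. Over all ctrl arrays, r of PPBP with GP9 and with ITGA2B was 0.19 each, where rho was 0.14 and 0.048 and exact permutation p was 0.638 and 0.637 (adjusted 0.649 each). Its r with TREML1 before ASIT was 0.013 (rho 0.21, exact p = 0.979, adjusted 0.979). With ITGB3, PPBP had r = 0.81 in ctrl (rho 0.79, exact p = 0.0088, adjusted 0.0331), 0.72 before ASIT (rho 0.71, exact p = 0.0835, adjusted 0.15) and 0.80 after ASIT (rho 0.89, exact p = 0.0302, adjusted 0.0731), and without the 2 farthest arrays 0.71, −0.031 and 0.68, where those left out before ASIT were dogs 4 and 6. With SELP its r was 0.68 in ctrl, 0.77 before ASIT and 0.83 after ASIT (rho 0.60, 0.75 and 0.96, exact p = 0.0558, 0.0581 and 0.0256, adjusted 0.117, 0.118 and 0.066 for r and 0.23, 0.149 and 0.025 for rho), and 0.61, 0.51 and 0.81 without the 2 farthest arrays. TREML1 stood close to GP1BA and GP9 in ctrl, at r = 0.93 and 0.91 (rho 0.86 and 0.93, exact p = 0.00104 and 0.00181, adjusted 0.0131 and 0.019). It had r of 0.62 and 0.57 with them before ASIT and of 0.63 and 0.58 after ASIT. Without the 2 farthest arrays, these r values were 0.77 and 0.78 in ctrl and 0.93 and 0.16 before ASIT. After ASIT, without dogs 4 and 5, they were −0.33 and −0.46. Differences in r between the groups were not tested.

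**Figure D3:**
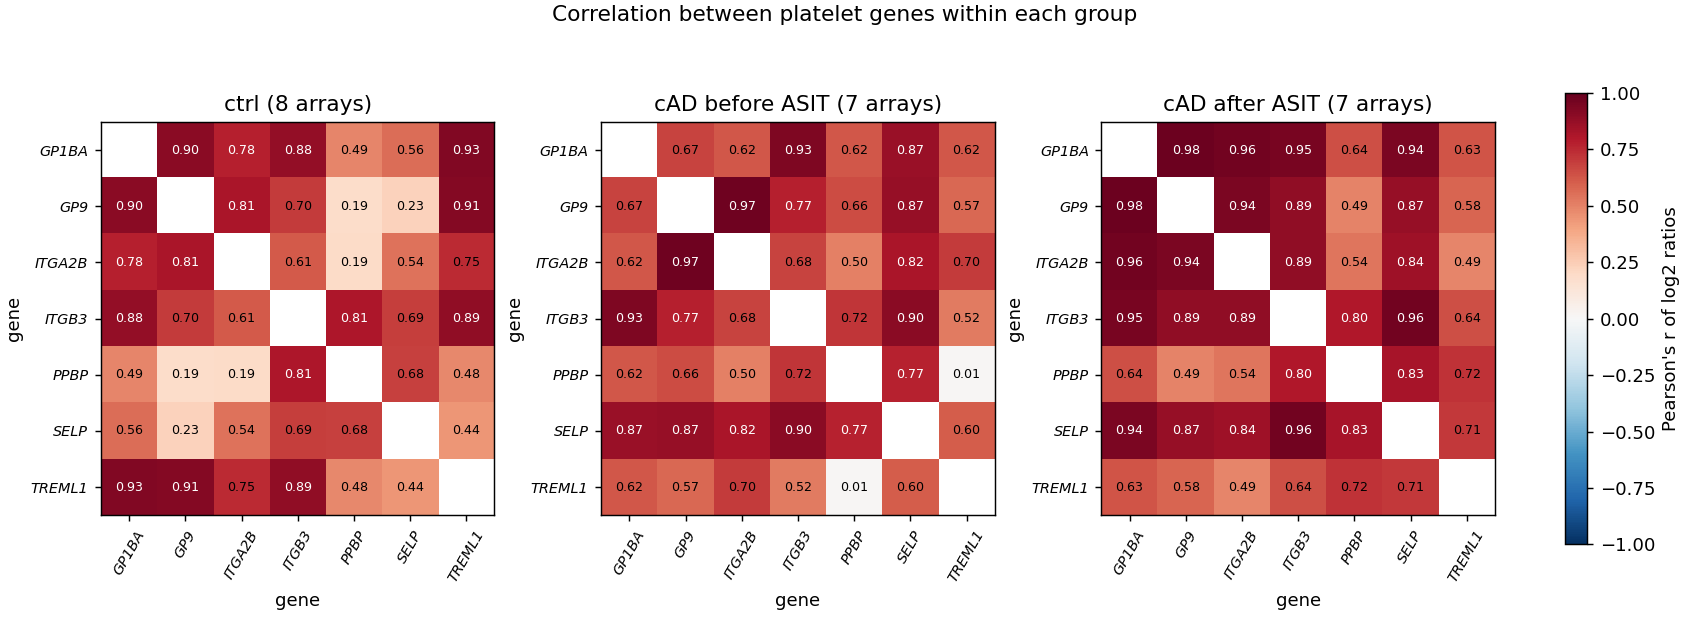
Pearson's r of log2 ratios between each pair of the 7 platelet genes (both axes), in ctrl over 8 arrays and before and after ASIT over 7 arrays each, with the colour scale from −1 to 1. All 21 pairs are positive in each group, with the lowest value, 0.013, for PPBP and TREML1 before ASIT.

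The 3 genes with 2 probes show what a second reading of the same RNA gives. The PPBP probes lie 3 bases apart on chromosome 13, plus strand (lead 62527607 to 62527666, second 62527610 to 62527669), and share 57 of their 60 bases, which the capitals mark.
PPBP lead probe: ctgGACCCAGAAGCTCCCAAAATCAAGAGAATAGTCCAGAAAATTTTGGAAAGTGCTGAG
PPBP second probe: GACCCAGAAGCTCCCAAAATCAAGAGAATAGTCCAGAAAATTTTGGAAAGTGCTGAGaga
Both sequences are shown because the probes are nearly the same and so give no separate reading of PPBP. Their r was 0.998 in ctrl, 0.995 before ASIT and 0.998 after ASIT (exact permutation p = 2.48e-05, 0.000595 and 0.000198), and rho was 1, 0.96 and 1. The SELP probes lie at separate places of the gene and had r = 0.995, 0.990 and 0.987 with rho of 1, 0.96 and 0.96 (exact p = 2.48e-05, 0.000397 and 0.000595). All 9 such relations, of 3 genes in 3 groups, were adjusted together, and these 6 had adjusted p values from 0.000112 to 0.000893.

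The ITGB3 probes did not follow each other in healthy dogs. Their r was −0.012 in ctrl (rho 0.024, exact permutation p = 0.979, adjusted 0.979), 0.89 before ASIT (rho 0.89, exact p = 0.0153, adjusted 0.0196) and 0.66 after ASIT (rho 0.54, exact p = 0.107, adjusted 0.121). The largest gap between them was 1.47, on ctrl replicate 1, where the lead probe read −1.18 against the group's median of 0.29. Without the 2 farthest arrays, r was 0.40, 0.83 and 0.53. The second probe matches the minus strand of chromosome 9 over a stretch of 1959 bases that is longer than its 60 bases, as the ITGA2B probe does over 930 bases of the plus strand, and these sequences are shown as examples from both chains of the fibrinogen receptor. The SELP lead probe likewise spans 1090 bases.
ITGB3 second probe: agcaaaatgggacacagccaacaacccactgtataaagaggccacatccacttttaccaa
ITGA2B lead probe: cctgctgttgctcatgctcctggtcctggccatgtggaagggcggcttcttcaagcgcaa
The GC content is 45% in the ITGB3 second probe and 60% in the ITGA2B probe. No annotation of this build was at hand to name the exons.

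Of 7222 other genes ranked, each measured by 1 probe and named by a symbol, the 10 most like the mean of the platelet genes over the 22 arrays, with group means subtracted, were KLHDC8B (r = 0.84), PARVB (0.83), SLC37A1 (0.82), SMOX (0.81), DUSP26 (0.79), MRVI1 (0.78), MYL9 (0.77), DGKH (0.77), TM7SF4 (0.76) and SLC24A3 (0.75). PARVB encodes a parvin that links integrins to actin, and MYL9 a regulatory light chain of myosin. MRVI1 encodes a partner of the inositol trisphosphate receptor, SMOX spermine oxidase and SLC24A3 an exchanger of sodium and calcium. Genes with several probes were not ranked, and among those of the further lists, the lead probes of THBS1 (0.90), NRGN (0.83), ITGA6 (0.80) and TPM4 (0.79) had r values in or above this range. With the means of each group on each slide subtracted instead, 7 of these 10 remained among the closest 10, and PLXNB3, MMRN1 and GUCY1A3 joined them. These r values describe a ranking and carry no test.

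Lists of further platelet and megakaryocyte genes hold 99 genes, of which 87 have a probe and 84 passed the filter. In 0 vs. ctrl 65 of the 84 were lower before ASIT and 19 higher, with a median of −0.11, and 0 were among the 16 probes called. In 6 months vs. ctrl 51 were lower after ASIT and 33 higher, with a median of −0.04, and limma called 0, with 0 at an unadjusted p under 0.05. In 0 vs. 6 months 60 were lower before ASIT and 24 higher, with a median of −0.11, and limma called 0, with 2 at an unadjusted p under 0.05. Over all probes the medians were −0.02, −0.04 and −0.01, 52.4%, 56.4% and 51.4% were lower, and 7.2% and 5.96% had an unadjusted p under 0.05 in the 2 comparisons with the arrays after ASIT. The lists were chosen with the results of the platelet genes known and were read on the same arrays. Their direction is thus no separate result, and whether it differs from that of all probes was not tested.

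Of receptors and adhesion molecules, 11 of 16 measured genes were lower in 0 vs. ctrl. ITGA2, a collagen receptor chain, had the difference farthest below 0, −1.26 (SE 0.27), and ESAM, an adhesion molecule, was the highest at 0.48. Cy5 of ITGA2 was above background on 12 of the 22 arrays, so its differences and its rank are not exact. In 6 months vs. ctrl 9 of the 16 were lower, from −0.45 for CLEC1B to 0.60 for ESAM, and in 0 vs. 6 months 11 were lower, from −0.93 for ITGA2 (adjusted p = 0.405) to 0.38 for the ATP receptor gene P2RX1.

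Of granule proteins and growth factors, 13 of 18 were lower in 0 vs. ctrl, from −0.83 for THBS1, the thrombospondin of alpha granules, to 0.30 for the proteoglycan SRGN. In 6 months vs. ctrl 11 were lower, from −0.38 for PDGFA (Cy5 above background on 13 of the 22 arrays) to 0.33 for SRGN, and in 0 vs. 6 months 13 were lower, from −0.60 for THBS1 to 0.38 for CD40LG. For granule making and release the counts lower were 7, 4 and 7 of 10 in the same order of comparisons. The extremes were RAB27A (−0.34) and SNAP23 (0.33) in 0 vs. ctrl, HPS1 (−0.33) and HPS4 (0.50, with Cy5 above background on 14 of the 22 arrays) in 6 months vs. ctrl, and HPS4 (−0.47) and STXBP5 (0.18) in 0 vs. 6 months.

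Cytoskeletal genes were lower in 0 vs. ctrl for 10 of 11, from −0.43 for MYL9 to 0.20 for VCL, whose Cy5 was above background on 12 of the 22 arrays. In 6 months vs. ctrl 9 were lower, from −0.30 for TPM4 to 0.15 for ACTN1, and in 0 vs. 6 months 9 were lower, from −0.32 for MYL9 to 0.27 for VCL. Signalling and eicosanoid enzyme genes were lower for 17, 11 and 15 of 20 in the same order. Their extremes were DAB2 (−0.40) and LYN (0.10), then RGS18 (−0.30) and BTK (0.42), then BTK (−0.47, adjusted p = 0.78) and RAP1B (0.14).

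Megakaryocyte transcription factors and cytokine signalling genes were lower for 7, 7 and 5 of 9. Their median in 0 vs. ctrl was −0.08, beside −0.53 for the 7 platelet genes. The platelet genes were chosen as low in this comparison, so the gap is no separate result. The extremes were THPO (−0.45, with Cy5 above background on 9 of the 22 arrays) and FLI1 (0.11) in 0 vs. ctrl, THPO (−0.41) and NFE2 (0.19) in 6 months vs. ctrl, and NFE2 (−0.28) and FLI1 (0.29) in 0 vs. 6 months. With most arrays not above background, the differences and ranks of THPO are not exact. Whether the 2 lists differ was not tested.

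Markers of red cell precursors had a higher list mean in dogs with cAD than in ctrl at both time points. Of 8 listed, 7 have a probe, with Cy5 above background on all 22 arrays, and the brightest was ALAS2, the first enzyme of heme synthesis in red cells. The mean of the list averaged −0.11 in ctrl (−1.29 to 1.16), 0.33 before ASIT (−1.31 to 1.22) and 0.51 after ASIT (−0.70 to 1.38). In 0 vs. ctrl 6 of the 7 genes were higher before ASIT, with a median of 0.33, while in 0 vs. 6 months 5 of the 7 were lower before ASIT, with a median of −0.22. In 6 months vs. ctrl and 0 vs. 6 months limma called 0 of the 7, and 0 had an unadjusted p under 0.05. Their part in the platelet gene ratios was not tested. Endothelial markers were lower for 5 of 6 genes in 0 vs. ctrl. The list includes VWF of the granule list and PECAM1, which platelets also carry. The differences were −0.84 for KDR, −0.62 for CDH5, −0.16 for PECAM1, −0.04 for VWF, −0.005 for SELE and 0.10 for TEK. Cy5 of CDH5, SELE and TEK was above background on 11, 15 and 18 of the 22 arrays, so the differences of these genes are not exact. The list mean averaged 0.07 in ctrl, −0.19 before ASIT and 0.03 after ASIT. The part of these markers in the platelet gene ratios was likewise not tested.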

How the data were processed

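RNA of each dog (Cy5) and of a reference pool (Cy3) was hybridized to 22 arrays on 6 slides, scanned on 4 days. The authors deposited scanner output of Agilent Feature Extraction (10.10.1.1 per the file headers, 10.7.3.1 in their notes), with each spot's intensity, raw and Lowess-normalized, and its log10 ratio of Cy5 to Cy3. The authors also deposited a matrix of log10 ratios, which equals the scanner values on the 14 arrays of dogs with cAD but not on the 8 ctrl arrays (r from 0.737 to 0.85). The log10 ratios were converted to log2, 208 spots flagged as outliers by the software were dropped, and replicate spots of a probe were averaged. The 38290 probes whose Cy5 signal was well above background on 7 or more arrays were fitted with limma 3.58.1 (R 4.3.3, data.table, version 1.17.8) over 3 groups, with Benjamini-Hochberg adjustment and a threshold of 0.05. Exact tests and figures used Python 3.11.15, numpy 2.4.6, pandas 2.3.3, scipy 1.17.1 and matplotlib 3.10.9, and the exact tests were tested on simulated data.

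The genes named are the 10 listed genes, each by its brightest probe, the largest rise and fall in each further list and comparison, and the 10 genes, with 1 probe and a symbol as name, most correlated with the mean of the platelet lead probes. Members and lists were chosen with earlier results of these data known. Lists of blood cell markers (erythroid, neutrophil, monocyte, T cell, B cell, cytotoxic, eosinophil and endothelial) were read in the same way. The fit had no block, since the methods name none. Pairing comes from the dog numbers in the source names, which name the same animal before and after ASIT. The sample titles after ASIT differ from these, since all read Patient 1, followed by therapy 1 to therapy 7. The r of a dog's own arrays over all probes, after removal of group means, was 0.469, 0.555, 0.165, 0.248, 0.334, −0.036 and 0.247 for dogs 1 to 7, and in 4 of 7 dogs the best match was its own array.

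Alternatives were normexp (offset 50) with loess, the ratio of processed signals, the series matrix, Cy5 alone, no filter, both channels above background on all arrays (19949 probes), slide or scan day as a random block, the dog as a replicate block, the slide as a fixed block, dogs 1 to 3 alone, the one-way and Tukey tests of the methods, a coefficient of variation under 75%, all probes of a gene, and each array left out. Normexp for the correlations and deviations from slide means were added after seeing the data.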

Additional observations from a re-analysis of the deposited data

Results flagged for a closer look

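A single array stood apart from the rest of its group in 2 of 30 checks, those of the 10 platelet probes in each of the 3 groups, by a gap to the nearest array above Dixon's critical value relative to the range of the group. Chance gives such a gap in about 1 of 20 groups. The GP1BA probe read −1.51 on ctrl replicate 1, where the nearest ctrl array read −0.23 (gap of 0.527 of the range, just above the critical value). On that array all 7 platelet genes were below 0. The TREML1 probe read 0.909 in dog 5 after ASIT, where the nearest array after ASIT read −0.0019 (gap of 0.594 of the range). On that array 0 of the 7 genes were below 0.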

How the results depend on the processing

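In 0 vs. ctrl the 7 genes had lower means before ASIT under each alternative that refits the differences and without each array in turn, with medians from −0.55 to −0.43 under the alternatives and from −0.69 to −0.41 without an array. The genes were chosen as low in this comparison on the same arrays, so the kept sign is no separate result. Group and slide cannot be told apart in it under any of these settings. The methods' test and the filter on the coefficient of variation were run for counts of calls only, and the mean of all probes concerns ITGB3, PPBP and SELP. For single genes, leaving out each array gave −0.36 to −0.066 for GP9, −0.53 to −0.23 for ITGA2B and −0.40 to −0.17 for TREML1, and Cy5 alone gave −0.092, −0.14 and −0.43. The number of probes limma called among all probes, 16, was 0 with normexp and loess, 9 with the series matrix, 8094 with Cy5 alone, 0 with both channels above background on all arrays, 0 with slide as a random block and 0 with scan day as a random block, and the methods' test called 0. At an unadjusted p under 0.05 the settings with 0 calls held 3003, 1675, 2990, 1237 and 2469 probes. Cy5 alone called 5948 probes in 6 months vs. ctrl. Without a filter on dim probes, 1 was called in 0 vs. 6 months. The causes were not tested.

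The difference of ITGA2B in 6 months vs. ctrl was 0.29 with Cy5 alone, where the median was −0.37. Leaving out each array in 6 months vs. ctrl gave −0.31 to 0.092 for GP1BA, −0.22 to 0.021 for GP9, −0.15 to 0.13 for ITGA2B, −0.34 to 0.0041 for ITGB3 and −0.24 to 0.030 for TREML1, with a change of sign without dog 4 after ASIT for these 5 genes, without ctrl replicate 3 for GP1BA (0.034), ITGA2B (0.050) and TREML1 (0.030), without ctrl replicate 5 (0.076) or dog 3 after ASIT (0.029) for ITGA2B, and without dog 1 (0.015) or dog 2 (0.0037) after ASIT for TREML1. SELP ran from −0.33 without ctrl replicate 1 to −0.066 without ctrl replicate 2, and the median from −0.31 without ctrl replicate 1 to 0.016. With normexp and loess TREML1 was at −0.22 and ITGA2B at −0.11, and with the mean of all probes ITGB3 was at −0.23.

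In 0 vs. 6 months TREML1 was at 0.011 with Cy5 alone, GP1BA at −0.30, GP9 at −0.067, ITGB3 at −0.11, SELP at −0.19 and the median at −0.16. With slide as a fixed block GP9 was at 0.070, PPBP at 0.30, TREML1 at 0.034, GP1BA at −0.16, ITGA2B at −0.092, ITGB3 at −0.10 and SELP at −0.022. That fit takes the differences from slides 3 and 4 alone, which hold both time points. PPBP was at −0.056 with slide and −0.027 with scan day as a random block, and GP9 at −0.054 with scan day. In dogs 1 to 3 alone the differences were 0.035 for GP1BA, 0.39 for GP9, 0.21 for ITGA2B, 0.070 for ITGB3, 0.51 for PPBP, 0.31 for SELP and 0.21 for TREML1, and their median was 0.21. Leaving out each array gave −0.26 to 0.057 for GP9, above 0 without dog 4 before ASIT, and −0.27 to 0.014 for PPBP, above 0 without dog 5 after ASIT. It gave −0.65 to −0.31 for GP1BA, −0.53 to −0.20 for ITGA2B, −0.54 to −0.24 for ITGB3, −0.52 to −0.22 for SELP and −0.28 to −0.025 for TREML1, and medians from −0.49 to −0.20. With normexp and loess TREML1 was at −0.038 and GP9 at −0.078. The exact sign-flip p of ITGB3 was 0.156 or 0.281 without any dog but dog 3. Dog 3 was the only one with a higher ITGB3 ratio before ASIT, so the exact p of 0.0313 without it is the smallest of 6 dogs by construction and is not read as a result. The causes were not tested. Pairs of genes with an adjusted exact p of r below 0.05 numbered 10, 4 and 9 with Cy5 alone and 8, 6 and 9 with normexp and loess, an alternative chosen after seeing the data. By rho they numbered 1, 1 and 2 and 2, 1 and 1, against 2, 2 and 5. With Cy5 alone 20 of 21 pairs were positive before ASIT, and the median r after ASIT without the 2 farthest arrays was 0.20, against 0.64. Signal over background limits the second ITGB3 probe and the genes ITGA2, THPO, VCL, PDGFA and HPS4. Cy5 of these genes was above background on 12, 9, 12, 13 and 14 of the 22 arrays, so their differences and ranks are not exact.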

Other observations

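Markers of the other blood cells had median differences on both sides of 0. In 0 vs. ctrl they were 0.0042 for 7 neutrophil genes, −0.09 for 6 monocyte genes, 0.05 for 6 T cell genes, −0.03 for 5 B cell genes, 0.24 for 3 cytotoxic genes and 0.23 for 2 eosinophil genes. The medians in 6 months vs. ctrl were 0.08, −0.01, −0.22, −0.26, −0.19 and 0.04 in the same order, with 0.54 for the 7 erythroid genes and 0.02 for the 6 endothelial genes. Those in 0 vs. 6 months were −0.09, −0.15, 0.28, 0.23, 0.53 and 0.19, with −0.22 for erythroid and −0.20 for endothelial genes. T cell, B cell, cytotoxic and eosinophil lists thus had positive medians in 0 vs. 6 months, where the 7 platelet genes had −0.36. The platelet genes were chosen as low before ASIT, so this contrast is no separate result. Across these 8 lists limma called 0 genes in either comparison with the arrays after ASIT. At an unadjusted p under 0.05 they held CD68 and IL5RA in 6 months vs. ctrl, with differences of 0.78 and 0.52 (adjusted p = 0.681 each), and 0 genes in 0 vs. 6 months, beside 7.2% and 5.96% of all probes.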
